A study of Mus musculus with 12 samples.

Results

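The genes described are the beta-globins Hbb-bt and Hbb-bs and the heme synthesis enzymes Alas1, Alas2, Alad, Urod, Cpox, Ppox and Fech. They are 9 genes among the 24704 with a probe set on the arrays, chosen by gene symbol with earlier results of these data known. Counts of members set beside shares of all genes are therefore description and not independent evidence. The samples were ventricular myocytes that enzymes had freed from the hearts of adult mice, treated for 24 h in culture or left untreated and then read on Affymetrix arrays. Of the 6 mice, 3 were double knockouts lacking CaMKII delta and CaMKII gamma (DKO), forms of a kinase activated by calcium and calmodulin, and 3 were the corresponding wild type (WT). The myocytes of each mouse were used for 1 untreated array and 1 array with isoprenaline (Iso) at 100 nM, a drug that activates the beta-adrenergic receptors and so speeds and strengthens the heartbeat. This made 4 groups of 3 arrays: untreated WT, Iso-treated WT, untreated DKO and Iso-treated DKO. The sources used here do not state the strain or the cells in which the kinase genes were deleted.

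Heme is the iron-containing ring that carries oxygen in hemoglobin and myoglobin and electrons in the cytochromes. Its synthesis starts in the mitochondrion with delta-aminolevulinate synthase, continues in the cytosol, and returns to the mitochondrion for the last oxidations and the insertion of iron. Alas1 encodes the form of the first enzyme found in most tissues, and Alas2 the form of red cell precursors. Beta-globin pairs with alpha-globin to form hemoglobin and is made in bulk only by red cell precursors. Heart muscle uses heme mainly for myoglobin and the respiratory chain.

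All values are log2 signals, so a difference of 1 is a doubling. A gene counted as near background on an array if it lay at or below the 95th percentile of the 1088 olfactory receptor probe sets there, a level between 3.39 and 3.54. Genes were tested if they lay above the array median on at least 3 of the 12 arrays, which 13737 genes and 8 of the 9 members did. A gene was called at an adjusted p under 0.05. The untreated DKO array 3 stood apart: its median correlation with the other arrays across genes was 0.956, against 0.984 to 0.988 for the other 11. Results of the members that rest on it are therefore also given without it. As a check of genotype, Camk2g lay between 3.57 and 4.20 on the 6 DKO arrays and between 4.78 and 5.80 on the 6 WT arrays, while Camk2d overlapped (7.36 to 7.98 against 7.94 to 8.42). The 10 cardiomyocyte markers were all tested, and their mean lay between 12.05 and 12.56 on every array. It was higher with Iso in both genotypes, with no overlap. In WT it ran from 12.14 to 12.25 untreated and from 12.32 to 12.45 with Iso. In DKO it ran from 12.05 to 12.28 untreated and from 12.35 to 12.56 with Iso.

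The calls below turn on Hbb-bt and Cpox, and Hbb-bs is the close neighbour of Hbb-bt. The 250 bases before the start of these 3 genes (RefSeq, GRCm38.p6) are therefore shown, read 5′ to 3′ on each gene's strand, at chr7:103813924-103814173 (minus strand) for Hbb-bt, chr7:103827929-103828178 (minus strand) for Hbb-bs and chr16:58669958-58670207 (plus strand) for Cpox. Capitals mark GATA motifs, that is GATA with A or T before it and A or G after it, on either strand, the kind of sequence bound by the erythroid factor GATA1.
Hbb-bt: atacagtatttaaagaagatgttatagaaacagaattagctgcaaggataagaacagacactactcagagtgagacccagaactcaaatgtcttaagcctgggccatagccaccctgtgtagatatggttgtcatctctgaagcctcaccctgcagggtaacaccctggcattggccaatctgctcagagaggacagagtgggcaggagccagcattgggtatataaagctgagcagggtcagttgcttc
Hbb-bs: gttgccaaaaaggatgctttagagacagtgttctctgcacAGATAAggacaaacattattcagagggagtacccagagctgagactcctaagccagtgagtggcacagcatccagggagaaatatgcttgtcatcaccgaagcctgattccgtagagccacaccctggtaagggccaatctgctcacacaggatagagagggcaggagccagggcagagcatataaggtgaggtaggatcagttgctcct
Cpox: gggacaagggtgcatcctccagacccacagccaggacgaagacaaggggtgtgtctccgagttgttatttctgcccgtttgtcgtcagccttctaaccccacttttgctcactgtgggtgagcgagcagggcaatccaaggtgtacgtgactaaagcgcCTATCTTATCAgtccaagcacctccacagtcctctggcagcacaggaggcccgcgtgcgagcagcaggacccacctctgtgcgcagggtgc

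The stretch before Cpox held 2 GATA motifs that share 1 base, with their first bases at -91 and -86 from the gene's start, the one before Hbb-bs held 1, and the one before Hbb-bt held 0. Of all 32851 stretches of this length in the table, 26.5% held at least 1. The motif CACCC, bound by erythroid Klf factors, was found on either strand 3 times before Hbb-bt, once before Hbb-bs and 4 times before Cpox, and 52% of all stretches held it. The cyclic AMP response element TGACGTCA, searched on either strand, was in none of the stretches before the 8 members that the table holds, and in 1.55% of all. No GATA motif overlapped a match of the other motifs. The sequences before Hbb-bt and Hbb-bs were identical at 70.9% of 261 aligned positions. These bases lie before the transcript, so they do not show which of the 2 transcripts a probe set reads. A match describes letters and not a bound factor.

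Of the beta-globins, Hbb-bt was well above background and Hbb-bs was not. Hbb-bt (Entrez gene 101488143) encodes an adult beta chain and read between 7.70 and 10.77. Hbb-bs (Entrez gene 100503605), its close neighbour, read between 2.53 and 2.96 and was near background on all 12 arrays. The coding sequences of these genes are known to be nearly alike, and the sources used here do not say which probes separate them, although each probe set carries the Entrez number of 1 gene. The Hbb-bt signal is therefore uncertain as to which beta-globin transcript it reports, and Hbb-bs gets no test.

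Among the enzymes, Alas1, Alad, Urod, Cpox and Fech were above background on every array. Alas2 was near background on all 12 arrays, between 2.95 and 3.50, and entered the test only because it passed the array median on 6 of them. Ppox, the next to last enzyme, which oxidises protoporphyrinogen, read between 3.50 and 4.53 and was near background on 1 array. With the 99th percentile of the olfactory receptors as the limit (4.41 to 5.18), Ppox would also be near background on all 12. Differences of Alas2 and Ppox are thus measured close to the floor of the signal.

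**Figure D1:**
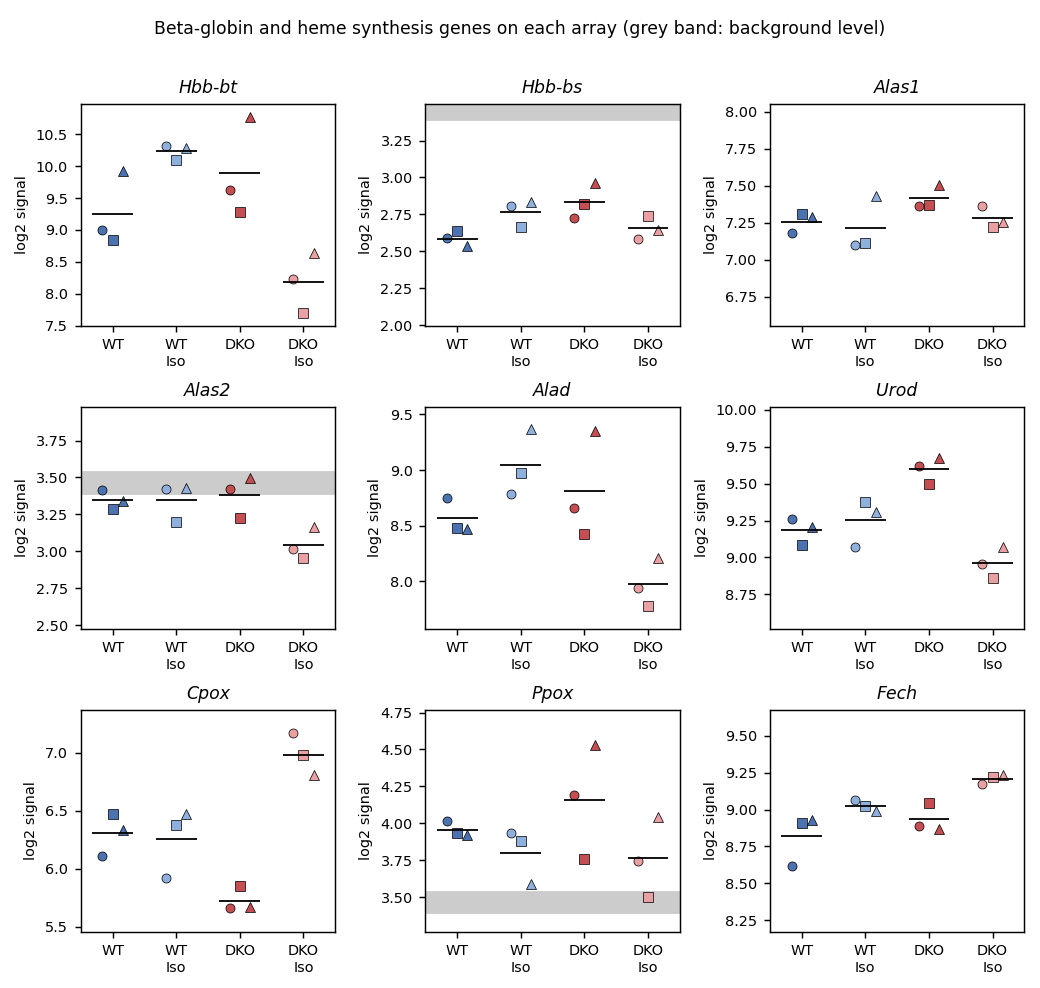
Log2 signal of each of the 9 genes (vertical axis) on the 3 arrays of each group (horizontal axis); circles, squares and triangles are mice 1, 2 and 3 of a genotype, bars are group means, and the grey band is the range of the background level over arrays (3.39 to 3.54). Iso-treated DKO arrays are the lowest for Hbb-bt, between 7.70 and 8.64, and the highest for Cpox, between 6.81 and 7.17.

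The Iso response of WT myocytes was examined first. No member was called in limma's test, in which 0.0218% of all tested genes were called, and 1 of the 8 tested members had an unadjusted p under 0.05, against 6.7% of all genes (3.46% higher, 3.24% lower). That gene was Hbb-bt, which read 9.002, 8.85 and 9.92 untreated and 10.31, 10.10 and 10.29 with Iso. All treated arrays lay above all untreated ones, and the difference was 0.98 (SE 0.37, adjusted p = 0.638). Groups were also apart upward for Alad, the enzyme that joins aminolevulinate into porphobilinogen (0.48, SE 0.23, adjusted p = 0.754), and for Fech, which inserts iron into the ring (0.21, SE 0.12, adjusted p = 0.818). In all, 3 of 8 members had groups apart upward, against 7.16% of all genes, and 0 downward, against 8.42%. Cpox, which makes protoporphyrinogen, differed by -0.05, with a 95% interval of -0.41 to 0.30.

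In DKO myocytes 1 member, Cpox, was called with Iso and rose, in a comparison that called 0.051% of all genes (0.0437% higher, 0.00728% lower). Cpox (Entrez gene 12892) read 5.66, 5.85 and 5.67 untreated and 7.17, 6.98 and 6.81 with Iso. The treated and untreated arrays were thus apart, by 1.26 (SE 0.16, adjusted p = 0.0190). The call ended when untreated DKO array 1, untreated WT array 3, or array 1 or 2 of Iso-treated DKO was left out, and when the fit held just the 6 DKO arrays. Over all alternatives the highest adjusted p was 0.260. Without untreated DKO array 3 it held (1.23, adjusted p = 0.0230).

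Hbb-bt and the enzymes Urod and Alad were lower with Iso in DKO myocytes but did not pass. Hbb-bt read 9.62, 9.29 and 10.77 untreated, and 8.22, 7.70 and 8.64 with Iso. Its groups did not overlap, and the difference was -1.70 (SE 0.37, adjusted p = 0.0700). With the mouse as a fixed block, which compares the 2 arrays of each mouse, Hbb-bt was called (adjusted p = 0.0373), and without untreated DKO array 3 the difference was -1.27 (adjusted p = 0.0903).

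Urod, which trims the side chains of uroporphyrinogen, read 9.62, 9.49 and 9.68 untreated and 8.96, 8.86 and 9.07 with Iso, a difference of -0.63 (SE 0.12, adjusted p = 0.0612). Alad read 8.66, 8.42 and 9.35 untreated and 7.94, 7.77 and 8.21 with Iso, a difference of -0.84 (SE 0.23, adjusted p = 0.101). Both had untreated and treated arrays fully apart. Without untreated DKO array 2, Hbb-bt (-2.01, adjusted p = 0.0291), Alad (-1.03, adjusted p = 0.0352) and Urod (-0.69, adjusted p = 0.0315) passed along with Cpox, in a fit that called 605 genes in place of 7. Without array 3, Alad differed by -0.57 (adjusted p = 0.175) and Urod by -0.60 (adjusted p = 0.0757).

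Of the 8 tested members, chosen with earlier results known, 6 had an unadjusted p under 0.05 with Iso in DKO, 4 lower and 2 higher. The share of all genes was 18.4% (8.94% lower, 9.46% higher). The lower members were Hbb-bt, Urod, Alad and Alas2, and the higher ones Cpox and Fech. Groups were apart downward for 5 members (10.7% of all genes) and upward for 2 (10.8%). The members' median difference was -0.37, and that of all genes 0.01. Fech differed by 0.27 (SE 0.12, adjusted p = 0.247) and Alas2, near background, by -0.34 (SE 0.12, adjusted p = 0.174). Alas1, the rate-limiting enzyme in most tissues, differed by -0.13, with an interval of -0.40 to 0.13, and Ppox by -0.40, with an interval of -0.81 to 0.02.

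The 2 arrays of each mouse allow the Iso difference to be read within an animal. For Hbb-bt it was 1.31, 1.26 and 0.37 in the 3 WT mice and -1.39, -1.59 and -2.13 in the 3 DKO mice. For Alad it was 0.04, 0.49 and 0.89 in WT and -0.72, -0.65 and -1.14 in DKO. In both genes every WT mouse moved up and every DKO mouse down, and the share of all genes doing so was not computed. Cpox gave -0.19, -0.10 and 0.14 in WT mice and 1.51, 1.13 and 1.13 in DKO mice. Urod gave -0.19, 0.29 and 0.10 in WT mice and -0.67, -0.63 and -0.60 in DKO mice, so its DKO mice differed little from each other.

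**Figure D2:**
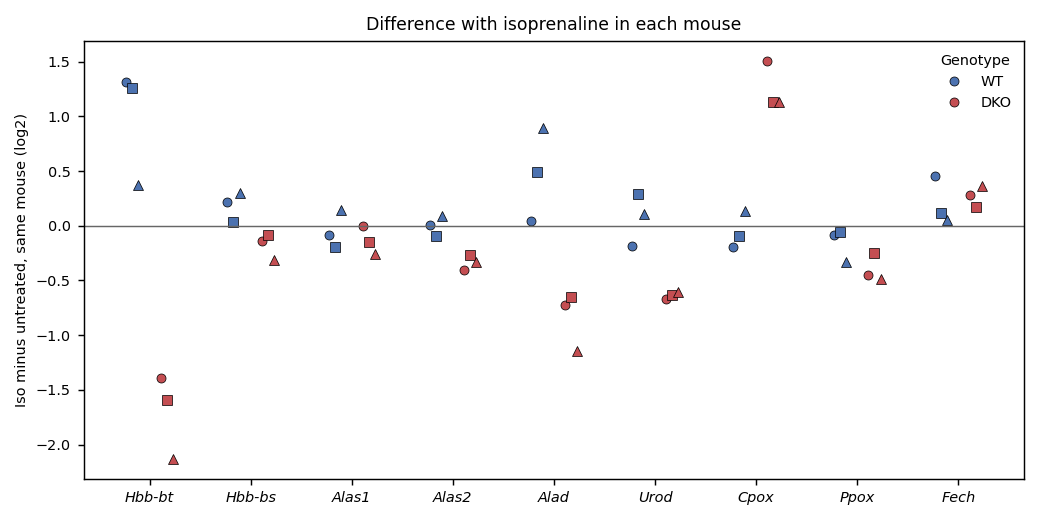
Iso-treated minus untreated log2 signal of the same mouse (vertical axis) for each of the 9 genes, with WT mice in blue, DKO mice in red and a marker shape per mouse. Hbb-bt lies between 0.37 and 1.31 in WT mice and between -2.13 and -1.39 in DKO mice, and Cpox lies at 1.13 or above in every DKO mouse.

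Whether the Iso difference itself depended on genotype was tested as the difference in DKO minus that in WT. None of the 8 members was called in limma's test (0.0146% of all genes were), and 4 had an unadjusted p under 0.05, against 10.1% of all genes (5.48% higher, 4.62% lower). They were Hbb-bt (-2.68, SE 0.52, adjusted p = 0.167), Alad (-1.31, SE 0.32, adjusted p = 0.307), Urod (-0.70, SE 0.17, adjusted p = 0.316) and Cpox (1.31, SE 0.23, adjusted p = 0.102). By unadjusted p, Cpox ranked 11 and Hbb-bt 16 among the 13737 genes. With the mouse as a fixed block, Hbb-bt passed (adjusted p = 0.0232) and was the only member to do so. Without untreated DKO array 3 its value was -2.25 (adjusted p = 0.0972). For Fech the value was 0.06, with an interval of -0.30 to 0.43, so a smaller dependence on genotype could not be seen.

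DKO and WT myocytes were then compared at the same treatment, in comparisons that share arrays with those above. Without Iso no member was called in limma's test (0.204% of all genes were), and 2 had an unadjusted p under 0.05, against 13.8% (6.36% higher, 7.45% lower). Cpox was lower in DKO (-0.58, SE 0.16, adjusted p = 0.179), its untreated WT arrays reading 6.11, 6.47 and 6.33. Urod was higher (0.41, SE 0.12, adjusted p = 0.195), its untreated WT arrays reading 9.26, 9.08 and 9.21. For these genes DKO and WT arrays did not overlap. Groups were apart upward for 2 members, Urod and Alas1 (7.84% of all genes), and downward for 1 (9.21%). Hbb-bt differed by 0.64 (SE 0.37, adjusted p = 0.451) and by 0.20 without untreated DKO array 3, so its genotype difference without Iso rested largely on that array. Alad differed by 0.24, and by -0.03 without it.

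With Iso, Hbb-bt was lower in DKO than in WT and was the only member called, in a comparison that called 0.306% of all genes (0.197% lower, 0.109% higher). Its group means were 8.19 ± 0.472 in DKO and 10.2 ± 0.117 in WT (SD, n = 3 each), a 4.13-fold difference (-2.05, SE 0.37, adjusted p = 0.0375). The 3 Iso-treated DKO arrays all lay below the 3 Iso-treated WT arrays. The call was lost in 11 of 23 alternative settings: without a filter on dim genes, with a filter at the 25th percentile, and without untreated DKO array 1, untreated WT array 1 or 2, or any 1 of the Iso-treated arrays. In these settings and the others the difference stayed between -2.27 and -1.80, with adjusted p between 0.00250 and 0.240. Without untreated DKO array 3, which affects this comparison only through the shared spread, adjusted p = 0.00326.

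None of the enzymes passed in this comparison. Alad read 8.79, 8.98 and 9.37 on the Iso-treated WT arrays, all above its Iso-treated DKO arrays (-1.07, SE 0.23, adjusted p = 0.0914). It was called when untreated DKO array 2 (adjusted p = 0.0491) or array 3 (adjusted p = 0.00755) was left out. Cpox read 5.92, 6.38 and 6.47 on the Iso-treated WT arrays, all below its Iso-treated DKO arrays (0.73, SE 0.16, adjusted p = 0.120), and passed narrowly without untreated DKO array 3 (adjusted p = 0.0499). Urod differed by -0.29 (adjusted p = 0.580), and its groups touched at 9.07. In all, 5 of 8 members had an unadjusted p under 0.05, against 7.91% of all genes (3.73% higher, 4.18% lower), namely Hbb-bt, Alas2, Alad and Urod lower and Cpox higher. Groups were apart downward for 3 members (8.56% of all genes) and upward for 2 (9.03%).

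**Figure D3:**
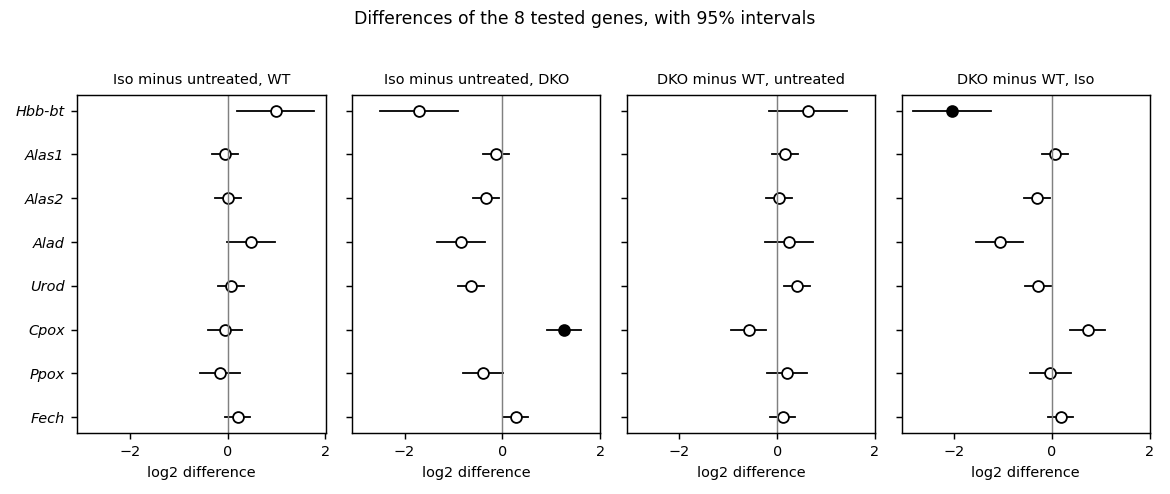
Log2 differences (horizontal axis) of the 8 tested genes (vertical axis) in 4 comparisons, with limma's 95% intervals as lines and filled circles for genes called at an adjusted p under 0.05. Filled are Cpox for Iso in DKO (1.26) and Hbb-bt for DKO minus WT with Iso (-2.05).

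The same order of groups was not seen in every enzyme. Alas1 lay between 7.10 and 7.51 on all 12 arrays, and its differences in the 4 comparisons of groups ran from -0.13 to 0.16. Fech lay between 8.62 and 9.23, with WT means of 8.82 ± 0.177 untreated and 9.03 ± 0.0391 with Iso and DKO means of 8.94 ± 0.0951 untreated and 9.21 ± 0.0321 with Iso (SD, n = 3). Ppox had group means between 3.76 and 4.16, with its highest value of 4.53 on untreated DKO array 3. Hbb-bs, at background, had means of 2.59 and 2.77 in WT and 2.83 and 2.66 in DKO, each untreated and with Iso. Its differences of 0.18 with Iso in WT and -0.18 in DKO had the signs of those of Hbb-bt.

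Other genes of heme and iron metabolism were read from 6 lists with 68 entries, of which 60 were measured and 53 tested. Hmox1 was lower in DKO with Iso, and no other entry was called in any of the 5 comparisons. At an unadjusted p under 0.05 there were 3 higher and 1 lower for Iso in WT, where 3.46% of all genes were higher and 3.24% lower. For Iso in DKO there were 2 higher and 8 lower, where 9.46% of all genes were higher and 8.94% lower. For DKO with Iso, 1 was higher and 7 were lower, where 3.73% of all genes were higher and 4.18% lower.

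Hmox1 encodes heme oxygenase 1, the inducible enzyme that breaks heme down to biliverdin, iron and carbon monoxide. WT arrays read 8.70, 8.43 and 8.91 untreated and 9.48, 9.16 and 9.13 with Iso. DKO arrays read 8.71, 8.75 and 9.12 untreated and 8.41, 8.35 and 8.30 with Iso. Iso-treated WT arrays were the highest and Iso-treated DKO arrays the lowest, and the latter were lowest for Hbb-bt too. Under Iso, DKO lay 1.87-fold below WT (-0.90, SE 0.16, adjusted p = 0.0327), and the call was lost without untreated WT array 1 or any 1 of the 6 Iso-treated arrays, with a highest adjusted p of 0.171. Iso differed from no treatment by 0.58 in WT (adjusted p = 0.458) and by -0.50 in DKO (adjusted p = 0.135), and the test of that difference gave -1.08 (SE 0.22, adjusted p = 0.226).

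Genes that supply or use heme and iron were read next. The widest difference with Iso in DKO among the 53 was that of Cp, which encodes the iron-oxidising plasma protein ceruloplasmin and was named after its values were seen (1.01, SE 0.58, adjusted p = 0.369). Cp ran from 5.46 to 8.53 over the arrays, and its difference was not recomputed without untreated DKO array 3. The mean of the iron handling list, which holds Cp, was 5.29 on that array and 5.59 and 5.65 on the other untreated DKO arrays. Uros, the enzyme between Alad and Urod that closes the ring, differed by -0.21 with Iso in DKO (adjusted p = 0.493) and by 0.06 in DKO with Iso (adjusted p = 0.976). Myoglobin (Mb), the oxygen store of heart muscle and a globin like Hbb-bt, lay between 13.18 and 13.41 on all arrays and differed by at most 0.09 in these comparisons. The transferrin receptor Tfrc, which takes up iron, differed by 0.42 with Iso in DKO (adjusted p = 0.335), and the ferritin chain Fth1, which stores it, by -0.24 (adjusted p = 0.547). Of 15 tested genes of iron handling, 0 had an unadjusted p under 0.05 for Iso in either genotype, and 2 were lower for DKO with Iso. Of all genes, 6.7% had such a p for Iso in WT and 18.4% for Iso in DKO, and 4.18% were lower for DKO with Iso. Of 13 other globins listed 9 were measured, and no adult alpha-globin gene was among these 9. Near background on all arrays were 5 of them, namely Hba-x, Hbb-bh1, Hbb-bh2, Hbb-y and Hbq1a.

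Markers of red cells and of other cells that a myocyte preparation can hold were set beside Hbb-bt. In a bulk sample, fewer cells of a type and less RNA per cell cannot be told apart. Of 21 erythroid markers 18 were measured, and 9 of these were near background on all 12 arrays: Slc4a1, Epb42, Klf1, Nfe2, Hemgn, Rhag, Car1, Ermap and Kel. The dimmest were Car1 (2.64 to 2.94) and Kel (2.70 to 2.95) and the brightest Rhd (7.19 to 7.82) and Sptb (4.95 to 5.44), a spectrin also made in muscle. The mean of the list in WT ran from 3.64 to 3.68 untreated and from 3.54 to 3.68 with Iso. In DKO it ran from 3.65 to 3.67 untreated and from 3.57 to 3.66 with Iso. These ranges overlapped, and with 9 of the 18 genes near background the mean had little room to move. The part of red cells in the Hbb-bt results was not tested. None of the 10 tested markers was called in limma's test in any comparison. At an unadjusted p under 0.05 there were 0 for Iso in WT (6.7% of all genes) and 1 lower for Iso in DKO (8.94%). Between genotypes there were 1 higher (6.36%) and 1 lower (7.45%) in untreated DKO and 0 under Iso (7.91%). The one lower with Iso in DKO was Icam4, an adhesion molecule of red cells, named after its values were seen (-0.66, SE 0.18, adjusted p = 0.0977). Unlike Hbb-bt, Icam4 was also lower with Iso in WT (-0.37, adjusted p = 0.754) and not lower in DKO with Iso (0.18, adjusted p = 0.909). With Iso in DKO, 4 of the 10 tested erythroid markers lay above 0 (median -0.08).

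Macrophage markers, like Hbb-bt, were lowest as a mean in Iso-treated DKO. Of 10 listed 9 were measured, with Ptprc near background on all arrays, and their mean lay between 4.08 and 4.27 in Iso-treated DKO, against 4.43 to 4.64 in Iso-treated WT, 4.43 to 4.67 in untreated WT and 4.48 to 4.61 in untreated DKO. All 8 tested lay below 0 for Iso in DKO (median -0.42) and for DKO with Iso (median -0.33). The medians of all genes were 0.01 and 0.005. At an unadjusted p under 0.05, 4 were lower for Iso in DKO (8.94% of all genes) and 2 for DKO with Iso (4.18%). With Iso in WT, where Hbb-bt was higher, 2 of 8 lay above 0 (median -0.08). Adgre1 and Fcgr1, counted among the 8, were near background on 8 and 6 arrays. Of the 8, Cd14, a co-receptor for bacterial lipopolysaccharide, was lower in DKO with Iso (-0.92, SE 0.17, adjusted p = 0.0402). In limma's test Cd14 differed with Iso by 0.67 in WT (adjusted p = 0.413) and by -0.08 in DKO (adjusted p = 0.836). The part of macrophages in the Hbb-bt and Hmox1 results was not tested. Of 8 platelet markers 7 were measured and 6 tested. The mean of those measured ran from 4.71 to 4.99 in Iso-treated DKO and from 5.01 to 5.37 in Iso-treated WT. Without Iso it ran from 4.71 to 4.93 in DKO and from 5.11 to 5.17 in WT, so it was lower in DKO without Iso too, unlike Hbb-bt. The platelet chemokine Ppbp was lower in DKO without Iso (-1.46, SE 0.24, adjusted p = 0.0312) and with it (-1.55, SE 0.24, adjusted p = 0.0206). The platelet collagen receptor Gp6, near background on 5 arrays, rose with Iso in DKO (1.02, SE 0.15, adjusted p = 0.0275). In that comparison 2 of the 6 tested platelet markers lay above 0 (median -0.10). Endothelial markers had a mean of 7.40 on untreated DKO array 3, the array on which Hbb-bt was highest, and of 6.73 to 7.32 on the other arrays. With Iso, 9 of the 10 lay above 0 in WT (median 0.20) and 2 of 10 in DKO (median -0.25), the directions of Hbb-bt. Within mice the list mean did not always move so. It went from 7.11 untreated to 7.14 with Iso on DKO arrays 1, and from 7.10 to 6.93 on WT arrays 3. In the other mice it moved in the directions of Hbb-bt. The medians were not recomputed without untreated DKO array 3. The medians of all genes were -0.01 and 0.01. For the interaction the markers had a median of -0.40. For DKO with Iso, where Hbb-bt was called lower, 6 of 10 lay above 0 (median 0.02). There the list mean of DKO (6.94 to 7.17) overlapped that of WT (6.93 to 7.32). The part of endothelial cells in the Hbb-bt result was not tested.

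**Figure D4:**
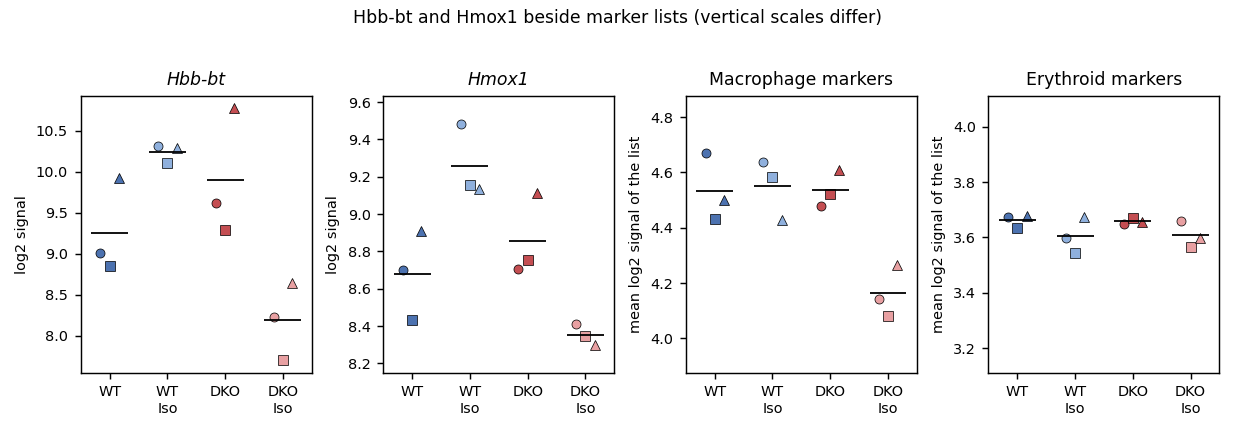
Log2 signal of Hbb-bt and Hmox1 and the mean log2 signal of the measured macrophage and erythroid markers (vertical axes, with different scales) on the 3 arrays of each group; marker shapes are mice and bars are group means. Iso-treated DKO arrays are lowest for Hbb-bt, Hmox1 and the macrophage markers (4.08 to 4.27), while the erythroid markers span 3.54 to 3.68 over all groups.

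Genes with profiles like those of the leading members were ranked by Pearson's correlation over the 12 arrays, which come from 6 mice, as a description. Closest to Hbb-bt were Ntsr2 (0.959), the antigen presentation gene Cd74 (0.920), the kinase gene Akt1 (0.913), Trav8d-1 (0.912), a segment of the T cell receptor alpha locus, and the chemokine gene Ccl5 (0.904). Cd74 had means of 8.01 and 8.30 in WT and 8.18 and 7.36 in DKO, each untreated and with Iso. Closest to Cpox were Syndig1 (0.943), Lrrfip1 (0.921), Tcf20 (0.920), the growth factor gene Vegfa (0.883) and Hsbp1 (0.879). Syndig1 had group means between 3.09 and 3.48, close to the floor of the signal. Tcf20 had means of 7.49 and 7.51 in WT and 6.90 and 7.93 in DKO, highest in Iso-treated DKO and lowest in untreated DKO like Cpox.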

How the data were processed

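Affymetrix arrays of 12 myocyte cultures were used. The deposited values are log2 signals that the authors made with RMA, per the submitters' processing notes. Its version, the array type and the probe set definition were not stated there. They were used as they are. Of 25428 probe sets 24705 carried 1 gene symbol, and the brighter was used where a gene had 2. Genes above the array median on at least 3 arrays were kept. Group means were fitted over all 12 arrays with limma 3.58.1 (R 4.3.3) and its moderated variances, and Benjamini-Hochberg adjustment ran over the 13737 genes kept. Errors are limma's SE or the SD of 3 arrays, whose number limits the precision.

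Each mouse gave 1 untreated and 1 treated array, so these are paired by animal; the deviations of the 2 arrays from their group means correlated at -0.0623 to 0.130, with a consensus of 0.0332. A random or a fixed block for the mouse was an alternative, beside other filters, scalings, variance models, array weights, fewer arrays and each array left out.

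Named were all 9 members, Uros, Hmox1, Tfrc, Fth1 and Mb, listed genes that were called, the 2 brightest and 2 dimmest erythroid markers, and the 5 named genes most correlated with Cpox and with Hbb-bt. Camk2g and Camk2d checked the genotype. Members and lists were chosen with earlier results of these data known. Raw array files were not used here.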

Additional observations from a re-analysis of the deposited data

Results flagged for a closer look

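For 3 members the Iso difference had opposite signs in every WT mouse and every DKO mouse. The share of all genes with such signs was not computed, so this count has no background beside it. The difference in DKO minus that in WT was -2.68 for Hbb-bt (limma, adjusted p = 0.167) and -1.31 for Alad (adjusted p = 0.307), so neither passed the test of the difference over all genes, up in 3 of 3 WT mice and down in 3 of 3 DKO mice in each case. For Hbb-bs, near background on all arrays, it was -0.36, and this difference was not tested.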

How the results depend on the processing

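Over 24 alternative settings, 931 values of the 40 tested differences were recomputed: 883 kept their direction and their side of the threshold, 16 lost a call, 18 gained one and 14 changed sign. For Iso in DKO 1 member was called, against 4 with array weights, 2 with the mouse as a fixed block, 0 with only the 6 arrays compared and 0 to 4 on leaving out 1 array. For the interaction the count of 0 became 2 with array weights and 1 with the mouse as a fixed block. For DKO without Iso it became 2 with array weights. For DKO with Iso 1 member was called, against 0 without a filter or with one at the 25th percentile, 3 with array weights, 2 with only the 6 arrays and 0 to 3 on leaving out 1 array. With the mouse as a random block no member's call changed. Signs changed only on leaving out 1 array, in values near 0. Those values ran from -0.15 to 0.013 for Alas1, -0.039 to 0.078 for Alas2 and -0.16 to 0.12 for Cpox with Iso in WT, and from -0.15 to 0.018 for the Alas1 interaction. They ran from -0.025 to 0.11 for Alas2 and -0.026 to 0.44 for Alad in DKO without Iso, and from -0.18 to 0.094 for Ppox in DKO with Iso. With the array median as background 1 member, and with the 99th percentile of olfactory receptors 3, were near background on all arrays, against 2. The whole fit was sensitive too: array weights called 1109 genes for Iso in DKO in place of 7, and the cause was not tested.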
